A study of Homo sapiens with 8 samples.

Results

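The EGF family comprises growth factors that bind the ERBB receptor tyrosine kinases. This account follows 9 of its genes, the 6 ligands AREG, EREG, HBEGF, TGFA, NRG1 and BTC and the 3 receptors EGFR, ERBB2 and ERBB3, in fibroblasts exposed to the secretions of cells undergoing oncogene-induced senescence. The genes were taken by their symbols from a table of 27696 genes. All 9 were found, and 6 of them, AREG, EREG, HBEGF, NRG1, EGFR and ERBB2, had enough counts to be tested. TGFA, BTC and ERBB3 did not pass the filter on low counts and are described by their counts alone.

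Most EGF-family ligands are made as membrane-anchored precursors and become soluble when a metalloprotease of the ADAM family cuts them off the cell surface. AREG, EREG, HBEGF, TGFA and BTC bind EGFR, while NRG1 binds ERBB3 and ERBB4. ERBB2 has no known ligand of its own and signals as the partner of another receptor. An occupied receptor activates the RAS and ERK cascade, which switches on a set of early genes, among them feedback inhibitors of the same cascade. EREG and AREG are also known as components of the senescence-associated secretory phenotype (SASP), the mixture of cytokines, proteases and growth factors released by senescent cells.

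The recipient cells were IMR90 fibroblasts, primary fibroblasts from human embryo lung. The donor cells were IMR90 ER:RAS fibroblasts, which hold a RAS oncogene that 4-OHT, an active form of tamoxifen, switches on. Medium conditioned by the donors at day 0, 4, 7 or 10 of induction was placed on the recipients for 3 days, and the 4 groups of recipient cells, D0, D4, D7 and D10, bear the day at which their medium was collected. The control group, D0, thus also received medium conditioned by ER:RAS cells. The sources used here do not say whether 4-OHT was removed from the media, so an effect of the compound and of the secretions cannot be told apart. Each of the 4 groups held 2 libraries, so 8 libraries of poly(A)-selected RNA were compared. The RNA came from 2 independent experiments, and replicates 1 and 2 were taken as experiments 1 and 2.

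Total counts per library lay between 11708193 and 13395912. The labelled cell type was borne out by its markers, since all 8 fibroblast markers were detected and their summed level was 28800 to 43390 CPM (scaled counts-per-million) in 7 libraries. D10 replicate 2 stood apart, with a sum of 9579 CPM, and its count of COL1A1, the main fibrillar collagen gene, corresponded to 1293 CPM where every other library had at least 8682 CPM. With the experiment as a replicate block, the fibroblast markers PDGFRB, a growth factor receptor, and DCN, a small matrix proteoglycan, fell by 1.40 and 1.75 on the log2 scale at D10 (adjusted p = 0.0181 and 0.0362). LUM, another such proteoglycan, fell by 1.08 at D7 with the block (adjusted p = 0.0408). The 6 epithelial markers in the table summed to 0.683 to 1.56 CPM and the 4 leukocyte markers to 1.53 to 3.77 CPM, which included CD68 with the largest fitted difference of the leukocyte list (log2 fold change 1.30 at D10, adjusted p = 0.691). The 5 endothelial markers summed to 42.5 to 121.6 CPM, nearly all of it from TEK at 40.3 to 120 CPM, while VWF stayed at or below 2.37 CPM. Because D10 replicate 2 was also the library with the highest AREG, EREG and NRG1, the D10 results of the members are given with and without it. Without it only D10 replicate 1 is left in that group, so those fits measure no spread between D10 libraries. The part of the lower fibroblast markers in these results was not tested.

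The position of the members is given on GRCh38 as in GENCODE release 29. EREG (ENSG00000124882.3; chr4:74365143-74388751, plus strand) and AREG (ENSG00000109321.10; chr4:74445134-74455009, plus strand) are neighbours whose starts lie 80.0 kb apart, and BTC (ENSG00000174808.11; chr4:74744759-74794686, minus strand) follows them. These 3 were the only protein-coding genes in the span of 429.5 kb from EREG to BTC. The other members are spread over the genome, with HBEGF (ENSG00000113070.7) at chr5:140332843-140346631 and TGFA (ENSG00000163235.15) at chr2:70447280-70554193, both on the minus strand. Among the receptors, EGFR (ENSG00000146648.17) lies at chr7:55019021-55211628, ERBB2 (ENSG00000141736.13) at chr17:39687914-39730426 and ERBB3 (ENSG00000065361.14) at chr12:56076799-56103505, all on the plus strand. Little of their exon sequence can be confused with other genes. The share of 50-base words also found in another gene was 0 for 6 members and at most 0.329%, in ERBB3, for the other 3. Genes on the opposite strand covered 1.49% of the exon bases of EGFR (EGFR-AS1) and 7.41% of those of ERBB2 (MIEN1 and PGAP3).

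The promoters of the 3 EGFR ligands that were tested are shown because these genes had higher counts at D10 than at D0 in both experiments. Each RefSeq window (GRCh38.p14) runs from 250 bases before the start site to 50 bases after it, and capitals mark a cAMP response element, the palindrome TGACGTCA that CREB-family factors bind.
AREG: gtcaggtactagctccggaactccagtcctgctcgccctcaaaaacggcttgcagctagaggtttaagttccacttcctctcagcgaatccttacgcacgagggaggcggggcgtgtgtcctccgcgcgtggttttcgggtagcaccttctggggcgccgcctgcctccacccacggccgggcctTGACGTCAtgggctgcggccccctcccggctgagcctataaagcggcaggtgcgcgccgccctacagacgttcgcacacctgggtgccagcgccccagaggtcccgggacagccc
EREG: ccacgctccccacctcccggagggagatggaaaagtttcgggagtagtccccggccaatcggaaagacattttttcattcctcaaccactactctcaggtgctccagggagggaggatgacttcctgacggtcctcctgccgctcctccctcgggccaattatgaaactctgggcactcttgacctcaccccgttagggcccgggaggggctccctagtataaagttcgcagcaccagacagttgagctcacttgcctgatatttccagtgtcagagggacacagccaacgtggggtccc
HBEGF: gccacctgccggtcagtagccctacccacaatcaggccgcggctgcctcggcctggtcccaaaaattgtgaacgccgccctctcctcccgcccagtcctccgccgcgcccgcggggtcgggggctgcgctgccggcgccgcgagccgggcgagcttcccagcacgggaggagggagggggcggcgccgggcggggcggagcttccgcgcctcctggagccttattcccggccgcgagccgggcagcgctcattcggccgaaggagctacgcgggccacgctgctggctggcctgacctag
These windows lie at chr4:74444886-74445185 on the plus strand for AREG, chr4:74364895-74365194 on the plus strand for EREG and chr5:140346554-140346853 on the minus strand for HBEGF. The element was present once in the AREG window, with its first base at position -65 from the start site, and was absent from the EREG and HBEGF windows. It occurs in 649 of the 35116 promoter windows (1.85%). The AP-1 motif TGANTCA, which Fos and Jun dimers bind and which occurs in 2707 windows (7.71%), was in none of the 3. Both motifs read the same on either strand and neither contains the other. Of the 7 members with a window, the AP-1 motif was found in ERBB2 at -222 and in the second of the windows of EGFR at -232 and -136. A match is a description of these letters and no evidence of binding.

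The tested ligands had higher levels in recipient cells given late medium, and so did EGFR at D10, whereas ERBB2 did not. In the fit by group, no tested ligand or receptor had an adjusted p under 0.05 on a single day. AREG, HBEGF and NRG1 were higher in both D10 libraries than in both D0 libraries, as were EREG and EGFR, so that 5 of the 6 tested members separated in this direction against 15% of all 13798 tested genes. None lay below, against 16% of the tested genes. For EREG the margin was 22 counts in D10 replicate 1 against 20 in D0 replicate 2, and their 95% Poisson intervals overlapped. The members were chosen with earlier results of these data known, so these shares are a description. Already at D4, 3 of the 6, AREG, HBEGF and NRG1, lay above both D0 libraries (9.72% of tested genes). AREG, EREG and NRG1 had a higher CPM at each later medium in both experiments, a pattern that 184 of the tested genes (1.33%) showed. Some of these steps lay within counting error. The 95% Poisson intervals overlapped from D4 to D7 for AREG in experiment 1 (153 and 192 counts) and NRG1 in experiment 2 (553 and 614). They also did from D7 to D10 for EREG in experiment 1 (18 and 22). The median log2 fold change of the 4 tested ligands was 1.00 at D4, 1.29 at D7 and 3.35 at D10, beside 0.01, 0 and 0 over all tested genes. In bulk RNA, a change in the level per cell and a change in the number of cells that make the transcript cannot be told apart.

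**Figure D1:**
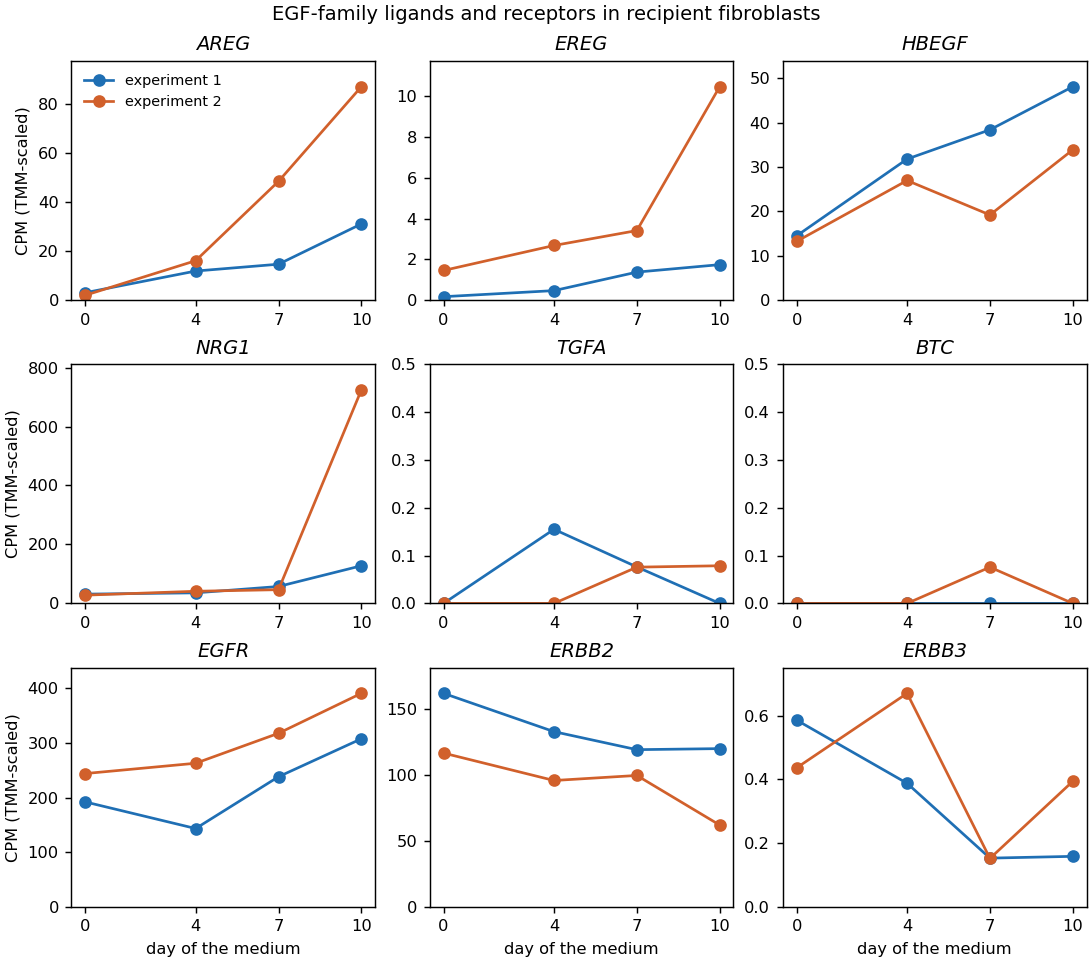
Level of each member in the 8 libraries, in CPM on a linear axis that starts at 0 and differs between panels, against the day of the medium, with 1 line per independent experiment. AREG, EREG and NRG1 were higher at every step in both experiments, with NRG1 at 724 CPM at D10 in experiment 2, while TGFA and BTC stayed at 0 to 2 counts. Some steps of AREG, EREG and NRG1 lay within counting error.

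How many genes passed depended on whether the experiment was a term in the fit, and also on the test used and the filter on low counts. With edgeR's quasi-likelihood test by group, 0 genes had an adjusted p under 0.05 at D4 or D7, that is 0% of the genes tested, although 409 and 599 had an unadjusted p under 0.05 and DESeq2 called 44 and 112. At D10, 40 genes were called (0.290%), and 163 had a slope over the day of the medium (1.18%). With the experiment as a replicate block the calls numbered 38 at D4 (0.275%), 172 at D7 (1.25%), 688 at D10 (4.99%) and 593 for the slope (4.30%). Against these shares, the fit without the block called 1 of the 6 tested members, AREG, and only for the slope. The blocked fit called none of them at D4, AREG at D7, and all 4 tested ligands at D10 and for the slope. EGFR and ERBB2 were called by neither fit. Without D10 replicate 2 the D10 group holds 1 library, so a call at D10 then measures no spread between D10 libraries. The blocked fit without D10 replicate 2, chosen after seeing the data, called 2 of the 6 at D4, 3 at D7, 5 at D10 and 4 for the slope, all of them higher. That fit called more genes in all, 3.18% of the 14168 it tested at D4, 5.49% at D7, 6.32% at D10 and 5.8% for the slope.

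AREG, which encodes amphiregulin, a ligand of EGFR, had the steepest slope of the members. From D0 through D4 and D7 to D10, its counts were 36, 153, 192 and 393 in experiment 1 and 27, 216, 639 and 1106 in experiment 2. These corresponded to 3.01, 11.9, 14.6 and 31.1 CPM in experiment 1 and to 1.96, 16.1, 48.5 and 87.1 CPM in experiment 2. All 6 later libraries exceeded both D0 libraries, whereas D4 overlapped with D7 and D7 with D10. The mean of D0 was 2.49 ± 0.743 CPM, that of D4 was 13.97 ± 2.986 CPM, that of D7 was 31.6 ± 23.9 CPM and that of D10 was 59.1 ± 39.6 CPM (SD, n = 2).

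The slope of AREG over the day of the medium was 0.445 log2 units per day (SE 0.067, adjusted p = 0.0154), and with the block 0.413 (adjusted p = 0.00256). Without the block this call rested on the end points, since the slope was 0.437 without D0 replicate 1 (adjusted p = 0.087), 0.402 without D0 replicate 2 (adjusted p = 0.0705) and 0.411 without D10 replicate 2 (adjusted p = 0.0664). The log2 fold change was 2.49 (SE 0.70, adjusted p = 1) for D4, 3.67 (SE 0.71, adjusted p = 0.307) for D7 and 4.57 (SE 0.73, adjusted p = 0.0597) for D10. With the block the values were 3.49 at D7 (adjusted p = 0.0177) and 4.42 at D10 (adjusted p = 0.00227). Leaving out D10 replicate 2 gave 3.65 at D10, and the blocked fit then gave 4.09, each with 1 library left at D10. The experiments differed in size, with AREG at D10 at 10.3 times its D0 level in experiment 1 and 44.4 times in experiment 2. The difference between experiments was present at D7, where the level was 4.86 times that of D0 in the first and 24.7 times in the second, and smaller at D4, with 3.94 and 8.19 times.

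EREG, the neighbour of AREG, encodes epiregulin, a ligand of EGFR and ERBB4, and had far fewer counts. Along the same order of media they were 2, 6, 18 and 22 in experiment 1 and 20, 36, 45 and 133 in experiment 2. The levels were 0.167, 0.465, 1.37 and 1.74 CPM in the first and 1.45, 2.68, 3.41 and 10.5 CPM in the second. The experiments stood apart at every day, experiment 2 being 8.68, 5.76, 2.49 and 6.02 times as high as experiment 1 at D0, D4, D7 and D10. The D0 and D10 groups did not overlap, but D0 replicate 2 exceeded the first-experiment libraries of D4 and D7. The count of 2 in D0 replicate 1 is below the floor of 3 counts used here, so its fold carries a wide counting interval, from 0.0203 to 0.605 CPM (95% Poisson), which covers counting error only.

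At D10, EREG had a log2 fold change of 2.87 (SE 1.19, adjusted p = 0.587), which with the block was 2.86 (SE 0.45, adjusted p = 0.00867). Its slope was 0.284 log2 units per day (adjusted p = 0.284) and with the block 0.291 (adjusted p = 0.00383). Without the block the D10 value ranged from 1.06 when D10 replicate 2 was left out (adjusted p = 0.999) to 5.10 when D0 replicate 2 was left out (adjusted p = 0.704), and the slope was 0.144 when D10 replicate 2 was left out (adjusted p = 0.9). The blocked D10 value without D10 replicate 2 was 2.41, with only D10 replicate 1 left in that group. Within experiment 2, where the counts were higher, EREG was at 1.84 times its D0 level at D4, 2.35 times at D7 and 7.2 times at D10. Per kilobase of exon, AREG exceeded EREG in all 8 libraries, by 4.68 to 88.5 times.

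HBEGF encodes heparin-binding EGF-like growth factor, which binds EGFR and ERBB4 and attaches to heparan sulfate at the cell surface. Experiment 1 gave counts of 173, 410, 503 and 608 over the 4 media, or 14.5, 31.8, 38.4 and 48.1 CPM. Experiment 2 gave 182, 362, 253 and 430, or 13.2, 27.0, 19.2 and 33.9 CPM. The D0 libraries lay close together and below all 6 others. HBEGF differed from the other ligands in that experiment 1 had the higher level on every day, experiment 2 being at 0.914, 0.848, 0.5 and 0.704 times its level. HBEGF was at 2.19 and 2.04 times the D0 level at D4 and at 3.32 and 2.56 times at D10 in experiments 1 and 2.

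The log2 fold change of HBEGF was 1.08 (SE 0.35, adjusted p = 1) at D4, 1.05 (SE 0.35, adjusted p = 0.783) at D7 and 1.56 (SE 0.35, adjusted p = 0.131) at D10. With the block it was 1.54 at D10 (adjusted p = 0.0058), and its slope was 0.137 log2 units per day (adjusted p = 0.0222). D10 replicate 2 did not carry this value, which was 1.80 when that library was left out. The blocked fit then gave 1.56, with 1 library left at D10. HBEGF was also the ligand with the highest level per length at D0.

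NRG1 encodes neuregulin 1, a ligand of ERBB3 and ERBB4 with many transcript forms, of which the annotation lists 22. The gene (ENSG00000157168.18) lies at chr8:31639386-32767959 on the plus strand. The table counts them together, so the form that changed cannot be read from it. NRG1 had 376, 462, 752 and 1614 counts over the 4 media in experiment 1, which are 31.5, 35.8, 57.4 and 128 CPM. In experiment 2 it had 385, 553, 614 and 9190 counts, which are 28.0, 41.2, 46.6 and 724 CPM. The 4 groups followed each other without overlap, and replicates were within 1.15 times of each other at D4, with ratios of experiment 2 to experiment 1 of 0.889 at D0 and 0.812 at D7. At D10 the ratio was 5.67. The 95% Poisson intervals of the D10 levels, 121.5 to 134 CPM and 709 to 738.7 CPM, did not overlap, so the difference between experiments was larger than counting error.

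At D10 the log2 fold change of NRG1 was 3.84 (SE 0.71, adjusted p = 0.0793), and with the block 3.64 (adjusted p = 0.0138). Its size rested on D10 replicate 2, since leaving out that library gave 2.10, and 2.06 with the block. Leaving out D10 replicate 1 instead gave 4.62. Each of these fits holds 1 library at D10 and measures no spread between D10 libraries. At D4 and D7 it was 0.37 (SE 0.64) and 0.81 (SE 0.64), both with adjusted p = 1. The slope was 0.370 log2 units per day (adjusted p = 0.0606), and with the block 0.340 (adjusted p = 0.0376). The slope was 0.184 per day when D10 replicate 2 was left out (adjusted p = 0.036). Within experiment 1 NRG1 was at 1.14, 1.82 and 4.06 times its D0 level at D4, D7 and D10, and within experiment 2 at 1.47, 1.66 and 25.9 times.

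**Figure D2:**
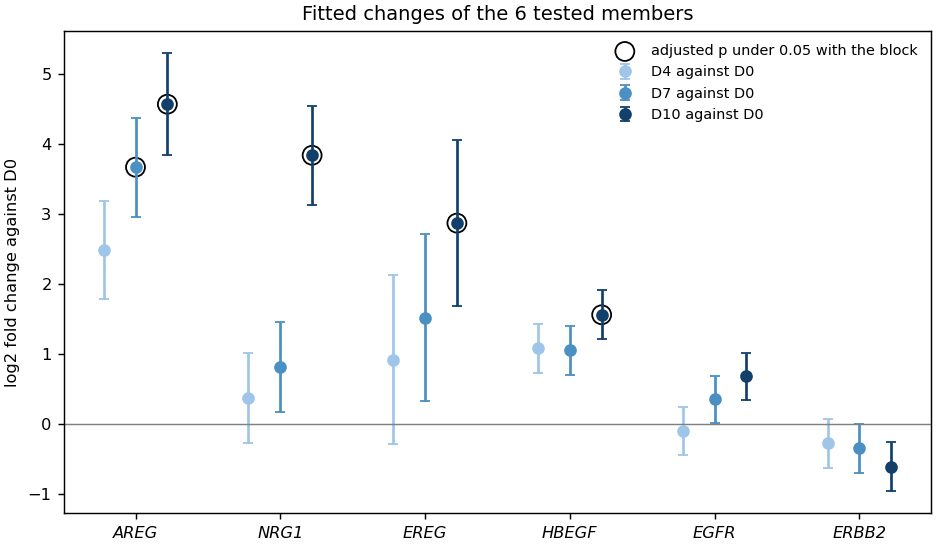
Log2 fold change against D0 of the 6 tested members at D4, D7 and D10, from the fit by group of all 8 libraries, with bars of 1 SE. Rings mark values with an adjusted p under 0.05 once the experiment entered the fit as a block, namely AREG at D7 and D10 and NRG1, EREG and HBEGF at D10.

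TGFA, which encodes transforming growth factor alpha, and BTC, which encodes betacellulin, were at the limit of detection. TGFA had 0, 2, 1 and 0 counts over the 4 media in experiment 1 and 0, 0, 1 and 1 in experiment 2. BTC had 1 count in D7 replicate 2 and 0 in the other 7 libraries. A count of 0 allows a level of up to 3 counts, or 0.2239 to 0.2562 CPM without TMM scaling, depending on the library. No value of either gene exceeded that floor, so no fold is given. The BTC gene is in the same chromosome 4 cluster as EREG and AREG.

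Of the receptors, EGFR was abundant in every library and higher in late media. EGFR encodes the receptor of AREG, EREG, HBEGF, TGFA and BTC. Over the 4 media it had 192, 143, 238 and 308 CPM in experiment 1 and 244, 263, 318 and 391 CPM in experiment 2. Both D10 libraries lay above both D0 libraries, but D7 replicate 1 lay below D0 replicate 2, and at D4 the experiments moved apart, to 0.746 and 1.08 times their D0 level. At D10 the level was 1.60 times that of D0 in each experiment. The log2 fold change at D10 was 0.68 (SE 0.34, adjusted p = 0.747), and with the block it was also 0.68 (adjusted p = 0.0718). Leaving out D10 replicate 2 gave 0.50, and the blocked fit then gave 0.78, each with 1 library left at D10. At D4 the fitted value was -0.10 (SE 0.34).

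ERBB2, the co-receptor without a ligand, had values in the other direction. Its levels over the 4 media were 162, 133, 119 and 120 CPM in experiment 1 and 117, 95.9, 99.7 and 62.1 CPM in experiment 2. Groups overlapped throughout, since D10 replicate 1 exceeded D0 replicate 2, but each later library lay below the D0 library of its own experiment. At D10 the ratio to D0 was 0.741 in experiment 1 and 0.532 in experiment 2. The log2 fold change at D10 was -0.61 (SE 0.35, adjusted p = 0.859), and with the block -0.66 (adjusted p = 0.0807). Leaving out D10 replicate 2 gave -0.21, and leaving out D10 replicate 1 gave -1.15, neither of them called.

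ERBB3, the NRG1 receptor with a weak kinase domain, had 7, 5, 2 and 2 counts over the 4 media in experiment 1 and 6, 9, 2 and 5 in experiment 2. These are at most 0.670 CPM, and the counting intervals of all libraries overlapped. ERBB4, the other NRG1 receptor and no member of the set, had between 0 and 2 counts. NRG1 was thus measured at 28.0 to 724 CPM in cells where neither of its receptors exceeded 9 counts.

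Levels of different genes were compared per length, as CPM per kilobase of exon (RPKM). At D0 the order was EGFR at 17.4 ± 2.93 RPKM, ERBB2 at 13.5 ± 3.11, HBEGF at 4.59 ± 0.293, NRG1 at 2.62 ± 0.218, AREG at 1.51 ± 0.451 and EREG at 0.142 ± 0.159 (SD, n = 2). The libraries of EGFR and ERBB2 overlapped, and those of HBEGF, NRG1 and AREG did not overlap with each other. At D10 NRG1 stood at 37.6 ± 37.2 RPKM, AREG at 35.9 ± 24.0, EGFR at 27.9 ± 4.70, HBEGF at 13.6 ± 3.33, ERBB2 at 8.83 ± 3.98 and EREG at 1.07 ± 1.08. The libraries of NRG1, AREG and EGFR overlapped at D10, so these 3 cannot be ordered. NRG1 in D10 replicate 1 (11.3 RPKM) lay below ERBB2 (11.6) and HBEGF (15.9) of that library. In D10 replicate 2 NRG1 (63.9 RPKM) lay above both, so NRG1 cannot be ordered against ERBB2 and HBEGF either. HBEGF exceeded ERBB2 within each D10 library, with 11.2 against 6.01 RPKM in D10 replicate 2. Between the experiments they overlapped, since ERBB2 in D10 replicate 1 exceeded HBEGF in D10 replicate 2. The order of HBEGF and ERBB2 also depends on the length used. The comparison of EGFR with ERBB2 depends on the length used. With the longest annotated transcript in place of all exons, ERBB2 ranked above EGFR at D0 and D4, and ERBB2 above HBEGF at D10.

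The make-up of the ligand transcripts differed between the media. The summed RPKM of the 6 ligands was 9.43, 21.0, 26.9 and 46.4 over the 4 media in experiment 1 and 8.30, 22.8, 40.5 and 130 in experiment 2, with no overlap between the groups. HBEGF held the largest share at D0, with 50.9% and 52.8% in experiments 1 and 2. AREG held 19.4% and 14.3% at D0 and 40.7% in both experiments at D10, with a peak of 72.6% in D7 replicate 2. The share of HBEGF at D10 was 34.4% and 8.64%. NRG1 held 29.4%, 15.1%, 18.8% and 24.3% over the 4 media in experiment 1 and 29.8%, 15.9%, 10.1% and 49.2% in experiment 2. AREG was thus the leading ligand of D10 replicate 1 and NRG1 that of D10 replicate 2. The leading ligand was the same in each of the 8 libraries when the longest transcript was used as length.

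The ratio of EGFR to ERBB2 per length was 0.976, 0.888, 1.64 and 2.11 over the 4 media in experiment 1 and 1.72, 2.26, 2.63 and 5.19 in experiment 2. Experiment 2 had the higher ratio on every day, and within each experiment the ratio was highest at D10. With the longest transcript as length, all ratios were lower, between 0.541 and 3.16.

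**Figure D3:**
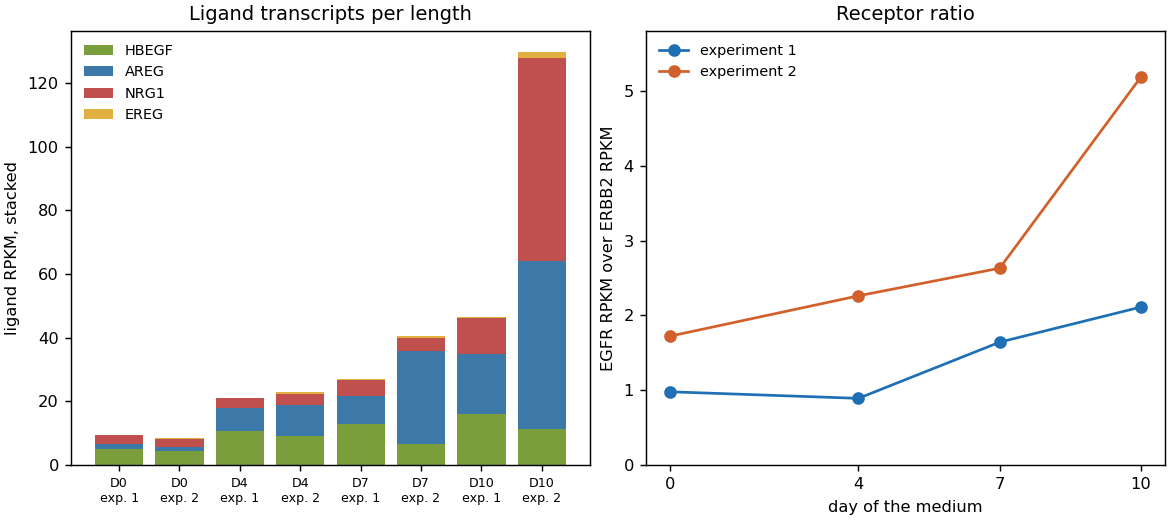
Left, RPKM of the ligands stacked for each of the 8 libraries on an axis that starts at 0. Right, the ratio of EGFR to ERBB2 RPKM against the day of the medium, with 1 line per experiment. The stack grew from 8.30 and 9.43 RPKM at D0 to 46.4 and 130 at D10, and the ratio reached 2.11 and 5.19.

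The genes whose level ran most closely with each member over the 8 libraries were named by the Pearson correlation of log2 CPM. The libraries share media and experiments, and the genes were picked as the closest of all other tested genes, so these values are a description. AREG ran closest with ETV4 (r = 0.993), an ETS transcription factor of the ERK pathway, with PLAT (r = 0.987), tissue plasminogen activator, and with LRRC8C (r = 0.974), a subunit of volume-regulated anion channels. NRG1 ran with TFPI2 (r = 0.997), a serine protease inhibitor, IL24 (r = 0.996), a cytokine of the interleukin-10 family, and ITPRIP (r = 0.994). Their mean levels at D0 and D10 were 49.5 and 1470 CPM for TFPI2, 0 and 39.9 CPM for IL24 and 29.8 and 80.6 CPM for ITPRIP. HBEGF ran with PLCXD1 (r = 0.985), VEGFC (r = 0.982), a growth factor of lymphatic vessels, and RAC2 (r = 0.981), a small GTPase.

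The closest partners of EREG were RNF168 (r = 0.989), a ubiquitin ligase of the DNA break response, GABPB1-AS1 (r = 0.989) and AHI1 (r = 0.986), a protein of the primary cilium. EGFR ran with SPEN (r = 0.984), a transcriptional corepressor, FBXL17 (r = 0.981) and ZBTB34 (r = 0.979), and ERBB2 with TMEM140 (r = 0.996), PRMT2 (r = 0.993), an arginine methyltransferase, and PRCP (r = 0.986), a lysosomal carboxypeptidase. How many genes reached r above 0.9 differed between members, from 31 for HBEGF and 71 for AREG to 176 for NRG1, 255 for EREG, 273 for EGFR and 329 for ERBB2. Over the 7 libraries without D10 replicate 2, the 18 correlations named here lay between 0.958 and 0.993.

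The machinery that releases, relays and restrains EGF-family signals showed few calls. Of 8 tested genes that control ligand shedding, none was called without the block, and 1, RHBDF2, was called higher at D10 with it, where 4.99% of all tested genes were called. RHBDF2 encodes an inactive rhomboid that brings the sheddase ADAM17 to the cell surface. It had 47, 59, 85 and 136 counts over the 4 media in experiment 1 and 74, 66, 71 and 180 in experiment 2, so both D10 libraries stood above the other 6. Its log2 fold change at D10 was 1.42 (SE 0.31, adjusted p = 0.119), and with the block 1.42 (adjusted p = 0.0141). The blocked value was 1.24 when D10 replicate 2 was left out. ADAM17 itself had 42.0 and 46.7 CPM at D0 and 52.3 and 45.8 CPM at D10 and was not called; it was named after its values were seen.

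None of the 17 tested adaptors and kinases that relay the signal to ERK was called at any day by either fit, and their median log2 fold change at D10 was -0.04. GAB1, a docking protein for activated receptors, had the largest value of this list, -0.42 (adjusted p = 0.998). None of the 10 tested genes that restrain the receptors was called by either fit, and their median was 0.07. Leaving out D10 replicate 2 with the block, 1 was called at D7, SOCS5 (0.69, adjusted p = 0.0105), and 1 at D10, LRIG1 (0.74, adjusted p = 0.0304), both named after their values were seen. That fit called 5.49% of all genes at D7 and 6.32% at D10. In the fit by group of all libraries, PTPN1 had the largest absolute value of this list at D10, -0.46 (adjusted p = 0.881). It encodes a phosphatase that acts on receptor tyrosine kinases.

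The list of ERK response genes was chosen with earlier results of these data known, so its counts beside the background shares are a description. Of 13 tested genes known to respond to ERK signalling, the log2 fold change was positive for 11 at D4, for 13 at D7 and for 11 at D10. The medians were 0.54, 0.54 and 0.82. Without the block none was called on a single day and 1, ETV4, was called for the slope. With the block 1 was called higher at D4, 5 at D7 and 7 at D10, and none lower, beside background shares of 0.275%, 1.25% and 4.99%. When D10 replicate 2 was left out as well, 6 were called higher at D4, 7 at D7 and 9 at D10, beside 3.18%, 5.49% and 6.32% of all genes in that fit. The 7 at D10 with the block were IER3, DUSP4, DUSP6, ETV4, SPRY2, SPRY4 and PHLDA1. EGR1, FOS, FOSL1, MYC, DUSP5 and ETV5 were not called at D10 with the block. The D10 level over D0 in experiments 1 and 2 was 4.18 and 0.768 for FOS and 0.93 and 1.85 for EGR1. For DUSP5 it was 0.946 and 0.986. FOSL1, MYC and ETV5 were higher at D10 than at D0 in both. FOS was at 0.586 CPM in D0 replicate 1 and 265 CPM in D0 replicate 2. Those not called were named after their values were seen. FOSL1, which encodes a Fos-family subunit of AP-1, was called at D7 (0.89, adjusted p = 0.048), and SPRY2 was the gene called at D4 (0.97, adjusted p = 0.0367).

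Several of these genes encode feedback inhibitors of ERK. DUSP6 encodes the phosphatase that removes the activating phosphates from ERK. Its level over the 4 media was 104, 188, 201 and 222 CPM in experiment 1 and 111, 187, 196 and 217 CPM in experiment 2, so that most of the difference was present at D4 and replicates lay close together. At D10 its log2 fold change was 1.03 without the block (adjusted p = 0.0852) and with it (adjusted p = 0.00448). DUSP4, a nuclear phosphatase of the same family, had 5.44 and 2.91 CPM at D0 and 17.2 and 12.8 CPM at D10, and its value with the block was 1.87 (adjusted p = 0.00442). SPRY2 and SPRY4 encode Sprouty proteins, which block RAS activation downstream of receptors. SPRY2 was at 1.13 at D7 and 0.79 at D10 with the block (adjusted p = 0.012 and 0.015), and SPRY4 at 1.47 and 1.34 (adjusted p = 0.0413 and 0.0233).

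ETV4, the gene closest to AREG in pattern, had 14.1, 23.7, 23.1 and 28.6 CPM over the 4 media in experiment 1 and 13.2, 23.5, 32.9 and 43.9 CPM in experiment 2. Its slope was 0.137 log2 units per day (SE 0.025, adjusted p = 0.0317). The call was lost without either D0 library, D4 replicate 2, D7 replicate 2 or D10 replicate 2, where it had adjusted p between 0.0545 and 0.163. At D10 it was called with the block at 1.39 (adjusted p = 0.00783). IER3, an early response gene, had 72.0 and 96.1 CPM at D0 and 219 and 526 CPM at D10. Its blocked value at D10 was 2.06 (adjusted p = 0.00271), and 1.58 without D10 replicate 2. PHLDA1 was at 1.00 with the block (adjusted p = 0.0256). Genes on the opposite strand cover 40.5% of the exon bases of DUSP6, 26.5% of those of IER3 and 16.5% of those of PHLDA1, and the strand setting of the counting is not given in the sources used here, so counts of these 3 may include reads of their overlapping partners.

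**Figure D4:**
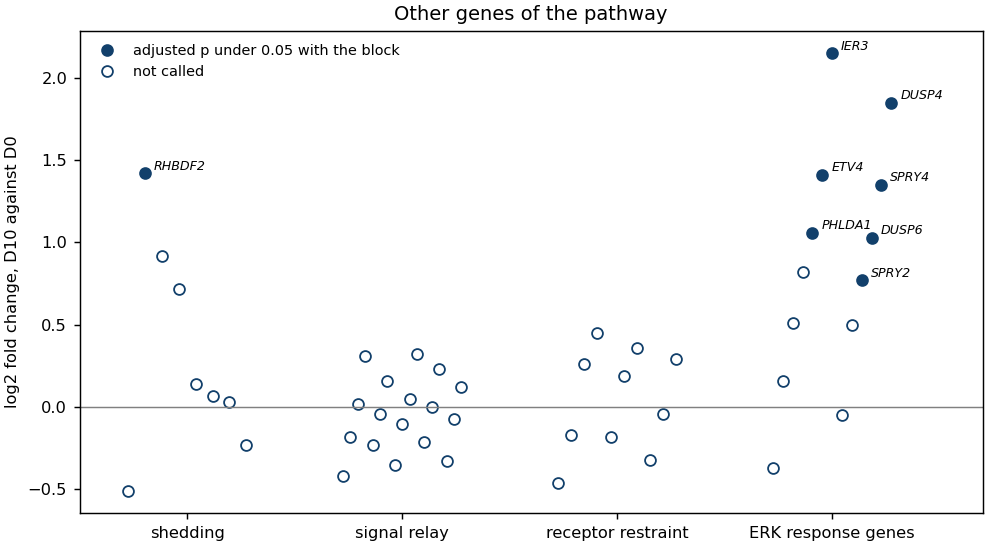
Log2 fold change at D10 against D0, from the fit by group, of each tested gene of the 4 pathway lists. Filled points were called with an adjusted p under 0.05 when the experiment entered the fit as a block, 1 in the shedding list and 7 in the ERK response list, and the points of the relay and restraint lists are all open.

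Of the 6 other family genes listed, EPGN and NRG3 had no row under these symbols in the count table, and NRG2, NRG4 and ERBB4 had too few counts to test. EGF, the founding ligand of EGFR, had 19, 22, 13 and 7 counts over the 4 media in experiment 1 and 20, 26, 9 and 2 in experiment 2. Both D10 libraries lay below both D0 libraries, the opposite order to the tested ligands of the set. The log2 fold change was -2.07 at D10 (SE 0.60, adjusted p = 0.267), and with the block -2.09 (adjusted p = 0.0689).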

How the data were processed

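RNA from 8 libraries, 2 per group, was analysed. The members and gene lists were chosen with earlier results of these data known. The deposited table holds whole-number counts per gene, which the authors did not normalize, and RPM values, which equal counts scaled by the total count within 0.0050 in all 8 columns and were not used in tests. The column headed DO was taken as D0 replicate 1, and 0 columns of per-sample values lacked a sample. The submitters' processing notes name STAR 2.5, DESeq2 and GRCh38 (hg38). The counting tool, its strand setting and its annotation are not given in the sources used here.

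Genes were filtered with filterByExpr, scaled with TMM and tested with edgeR 4.0.16 (glmQLFit and glmQLFTest, R 4.3.3) in one fit of all libraries, by group or by the day of the medium as a number. Adjusted p-values follow Benjamini and Hochberg over all tested genes, with calls at 0.05. Each SE was derived from the test, as the absolute log2 fold change or slope over the square root of its F statistic. CPM is the count over the total count times the TMM factor, log2 CPM used a prior count of 2, and RPKM divides CPM by the length of all exons in GENCODE 29. Libraries with the same replicate number were taken to come from the same experiment. The paper reports 2 independent experiments, and the sample titles give only a replicate number, so this pairing is an assumption. Libraries of one experiment left their group means together, with correlations over genes from 0.418 to 0.722 for the 6 pairs of groups, and the block lowered the common dispersion from 0.0792 to 0.0242. Other settings were size factors of DESeq2, the DESeq2 test (1.42.0), other filters, the block, the compared groups alone and leaving out each library. The methods were tested on simulated counts.

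Named genes are the 9 members, genes of the other lists that were called by either fit or had the largest value of their list at D10, and the 3 genes closest to each tested member. Promoters are RefSeq windows, held for 7 members, and figures were drawn with matplotlib 3.10.9.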

Additional observations from a re-analysis of the deposited data

How the results depend on the processing

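The number of called genes, 0 at D4, 0 at D7, 40 at D10 and 163 for the slope, moved with the test, the filter, the block and the libraries used. DESeq2 gave 44, 112, 379 and 488 genes, and no filter on low counts gave 21, 93 and 371 at D4, D7 and D10. Requiring at least 10 counts in every library gave 20 genes at D10, and fitting the 2 compared groups alone gave 0. The replicate block gave 38, 172, 688 and 593. Leaving out 1 library gave 0 to 155 genes at D10, with 0 without either D0 library, 15 without either of D4, 14 without either of D7, 155 without D10 replicate 1 and 11 without D10 replicate 2. For the slope the range was 36 to 155. The block without D10 replicate 2, chosen after seeing the data, gave 451, 778, 896 and 822.

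Over the values of the 6 tested members, 307 kept direction and side of the threshold, 37 came to pass it, 3 lost it, all for the slope of AREG, and 3 turned. These were EREG at D4, -0.82 without D4 replicate 2 (range -0.82 to 3.16 over the libraries left out), and EGFR at D4, 0.08 without D0 replicate 2 and 0.27 without D4 replicate 1 (range -0.60 to 0.27). Beside the blocked calls in the report, DESeq2 called AREG at D4 (adjusted p = 0.0233), D7 (3.05e-06) and D10 (5.07e-11), NRG1 (1.83e-08) and HBEGF (0.00606) at D10, and not EREG (0.178). Without the filter on low counts and without the block, edgeR called AREG at D4 (adjusted p = 0.0286), D7 (0.00016) and D10 (1.2e-06). It also called NRG1 (7.85e-06) and HBEGF (0.0079) at D10, and not EREG (0.0518). The cause of these differences was not tested. At this depth TGFA, BTC and ERBB3 could not be compared, and 2 libraries per group limit every test.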
